A study of Homo sapiens with 4 samples.

Results

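The genes described here were 10 transcription factors and cofactors that set or hold B cell identity, namely PAX5, EBF1, TCF3, IKZF1, IKZF3, POU2F2, POU2AF1, SPI1, SPIB and MEF2C. They were picked by name, with no threshold on a measured value, from the 19970 protein-coding genes that GENCODE release 44 places on chromosomes 1 to 22 and X of hg38. Their chromatin was measured by HiChIP, which joins DNA ends that were close in the nucleus and then enriches for DNA bound by a protein, so that a library gives both binding peaks and loops. HG00731 is an established lymphoblastoid cell line (LCL), that is, B cells immortalized with Epstein-Barr virus, from the 1000 Genomes collection. The sample titles name this line, whereas the growth description names another LCL, and the titles were followed. In the SMC1 group, which targets a subunit of cohesin, chromatin was fixed with formaldehyde and EGS, a second and longer cross-linker (FA-EGS HiChIP), whereas the CTCF group had formaldehyde alone (FA-HiChIP). Each group had 2 biological replicates, which the authors pooled into a single peak list and a single loop list per target. No spread between replicates can be given, and no difference was tested. The target and the fixation also differ together, so their parts in any difference between the lists cannot be told apart.

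SMC1 peaks and CTCF peaks were assigned to a gene when the summit lay in the gene body or within 50 kb of the gene start. Loops were assigned to a gene when an anchor lay within 5 kb of the start of any of its annotated transcripts. By these rules the 10 genes held 271 of 96855 SMC1 peaks, 127 of 62869 CTCF peaks, 87 of 28012 loops labelled SMC1 and 171 of 80487 loops labelled CTCF. Every loop labelled SMC1 in the whole list had a CTCF peak at an anchor, and 11 had no SMC1 peak there. Every loop labelled CTCF had an SMC1 peak at an anchor, and 3745 had no CTCF peak there. These values go against the labels of the loop lists. The study's own account of its loop sets also assigns the larger set to SMC1, the reverse of the deposited labels. Both set sizes in that account equal those of the lists here, each under the other target. It also states that a called loop has an anchor enriched in its target. The list labelled SMC1 thus most likely holds the CTCF loops, and the list labelled CTCF the SMC1 loops. The lists are still named by their deposited label throughout, and values with the lists exchanged stand in the closing section. A gene with no loop labelled SMC1, such as MEF2C, should therefore not be read as lacking cohesin loops. Marker genes served as a rough check of the identity of the cells. The B cell markers MS4A1, CD79A, CD79B and CD22 each had an SMC1 summit within 1 kb of a start. So did 1 of 5 T cell markers, 2 of 5 myeloid markers and 1 of 5 erythroid markers, and 62.6% of all coding genes. A CTCF summit at a start, or a loop, set B cell and T cell markers less apart. Binding at a start is not a measure of expression.

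As background, B cell development depends on a small set of factors that act together. TCF3, which encodes the E proteins E12 and E47, and EBF1 open the B lineage programme and help to switch on PAX5, which then holds cells in the B lineage. IKZF1 and IKZF3 encode the zinc finger proteins Ikaros and Aiolos, POU2F2 encodes OCT2, which binds octamer sites with its coactivator OBF1 from POU2AF1, SPI1 and SPIB encode the ETS factors PU.1 and SPI-B, and MEF2C is a MADS box factor used in B cell activation. Cohesin is a ring complex that extrudes DNA into loops, and CTCF is a DNA-binding protein at which extrusion often stops. CTCF reads a directional DNA motif, and cohesin is also found without CTCF, often at enhancers and active promoters.

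The DNA at the anchors of the loops with the most read pairs is shown first, where it held letters that match the CTCF motif. Each line gives 101 bases of the plus strand of hg38 around a match to the 12-letter core of the CTCF motif, in capitals, inside a CTCF peak at an anchor of that gene's loop of highest read count in the list labelled SMC1. None of these windows touches an annotated exon. A match need not be the site that CTCF reads, nor lie at the summit or in the highest peak of the anchor. The PAX5 match lies in a CTCF peak with a -log10 q-value of 3.76. The highest CTCF peak on that anchor, with a -log10 q-value of 45, held no match. A core that runs from CC to GGC when read along the plus strand is called plus, and one that does so along the minus strand is called minus. The cores at EBF1, IKZF1, POU2AF1, POU2F2 and SPI1 were plus, and those at PAX5 and TCF3 were minus, as was that of SPIB, which is not shown because its window touches an exon. There is no such window for IKZF3, whose anchors held no core, or for MEF2C, which had no loop labelled SMC1.
PAX5 anchor near the start, chr9:37026186-37026286: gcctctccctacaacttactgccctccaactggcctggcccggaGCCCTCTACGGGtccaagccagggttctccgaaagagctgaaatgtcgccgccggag
EBF1 end of the gene, chr5:158695656-158695756: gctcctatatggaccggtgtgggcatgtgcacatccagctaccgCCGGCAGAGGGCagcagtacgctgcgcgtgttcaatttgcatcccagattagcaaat
EBF1 start of the gene, chr5:159104494-159104594: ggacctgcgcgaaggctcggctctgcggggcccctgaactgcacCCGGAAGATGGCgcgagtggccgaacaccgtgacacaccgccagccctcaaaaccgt
IKZF1 upstream anchor, chr7:50205473-50205573: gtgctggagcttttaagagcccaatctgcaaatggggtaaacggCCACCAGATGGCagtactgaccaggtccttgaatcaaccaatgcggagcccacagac
POU2AF1 anchor inside POU2AF2, chr11:111283387-111283487: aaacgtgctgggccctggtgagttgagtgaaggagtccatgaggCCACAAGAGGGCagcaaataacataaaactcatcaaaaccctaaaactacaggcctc
POU2F2 start, chr19:42133197-42133297: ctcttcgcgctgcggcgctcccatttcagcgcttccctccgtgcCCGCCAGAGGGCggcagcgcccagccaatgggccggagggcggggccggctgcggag
SPI1 anchor near the start, chr11:47374041-47374141: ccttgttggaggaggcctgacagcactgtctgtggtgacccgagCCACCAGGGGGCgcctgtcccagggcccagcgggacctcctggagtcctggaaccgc
TCF3 upstream anchor, chr19:1672092-1672192: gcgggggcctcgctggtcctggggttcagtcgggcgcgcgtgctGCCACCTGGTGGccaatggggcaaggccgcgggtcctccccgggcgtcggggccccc

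The next lines give 201 bases of the plus strand of hg38 centred on the summit of the SMC1 peak without CTCF that had the highest -log10 q-value at PAX5, EBF1, IKZF1 and IKZF3. All 4 summits were intronic, with no exon in the window. Capitals mark matches on either strand to CCCNNGGG (a site read by EBF1), ATGCAAAT (the octamer), CAGCTG (an E-box read by E proteins) and GAGGAAG (a site read by PU.1). The PAX5 window held an EBF1 match and an E-box match, the IKZF1 window an E-box match, the IKZF3 window a PU.1 match on the minus strand beside an E-box match, and the EBF1 window held none of the 4. The corresponding windows of the other 6 genes, which are not shown, held no match either, so that 3 of 10 held any.
PAX5 intron, chr9:36994091-36994291: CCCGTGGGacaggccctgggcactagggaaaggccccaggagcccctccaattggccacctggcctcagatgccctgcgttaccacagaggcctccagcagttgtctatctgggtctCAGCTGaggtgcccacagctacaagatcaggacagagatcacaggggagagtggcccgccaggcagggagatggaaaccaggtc
EBF1 intron, chr5:159011335-159011535: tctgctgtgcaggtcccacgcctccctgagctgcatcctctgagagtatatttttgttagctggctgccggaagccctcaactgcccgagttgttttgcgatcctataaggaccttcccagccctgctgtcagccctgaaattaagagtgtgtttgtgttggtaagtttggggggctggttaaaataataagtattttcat
IKZF1 intron, chr7:50350769-50350969: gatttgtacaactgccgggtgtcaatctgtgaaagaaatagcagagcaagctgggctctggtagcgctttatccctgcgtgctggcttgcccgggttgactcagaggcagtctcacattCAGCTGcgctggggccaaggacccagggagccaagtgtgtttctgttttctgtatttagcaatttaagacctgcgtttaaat
IKZF3 intron, chr17:39794841-39795041: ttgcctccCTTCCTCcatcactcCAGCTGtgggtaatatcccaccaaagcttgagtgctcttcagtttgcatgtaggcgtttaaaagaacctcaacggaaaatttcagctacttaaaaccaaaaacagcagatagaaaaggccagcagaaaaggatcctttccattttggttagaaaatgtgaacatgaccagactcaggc

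Cohesin binding was dense along all 10 genes. The number of SMC1 peaks was 43 at PAX5, 65 at EBF1, 25 at IKZF1, 21 at IKZF3, 20 at POU2AF1, 20 at POU2F2, 14 at SPI1, 13 at SPIB, 12 at TCF3 and 38 at MEF2C. The 3 longest genes held the most, and the density ranged from 12 peaks per 100 kb of window at TCF3 to 17.1 at PAX5, with a median of 13.7. Over all protein-coding genes the median density was 5.82 SMC1 peaks per 100 kb, and over the 12500 coding genes with an SMC1 summit at a start it was 7. The density at PAX5 exceeded that of 99.2% of coding genes, and that at TCF3 exceeded 89.2%. CTCF peaks numbered 19 at PAX5, 22 at EBF1, 13 at IKZF1, 11 at IKZF3, 11 at POU2AF1, 17 at POU2F2, 10 at SPI1, 8 at SPIB, 6 at TCF3 and 10 at MEF2C. Their density had a median of 7.37 per 100 kb over the 10 genes and 4 over all coding genes, and it was lowest at MEF2C, with 4.22, and at EBF1, with 4.85. Most SMC1 summits lay in introns of the genes, with 201 intronic, 14 exonic and 56 outside the gene body.

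**Figure D1:**
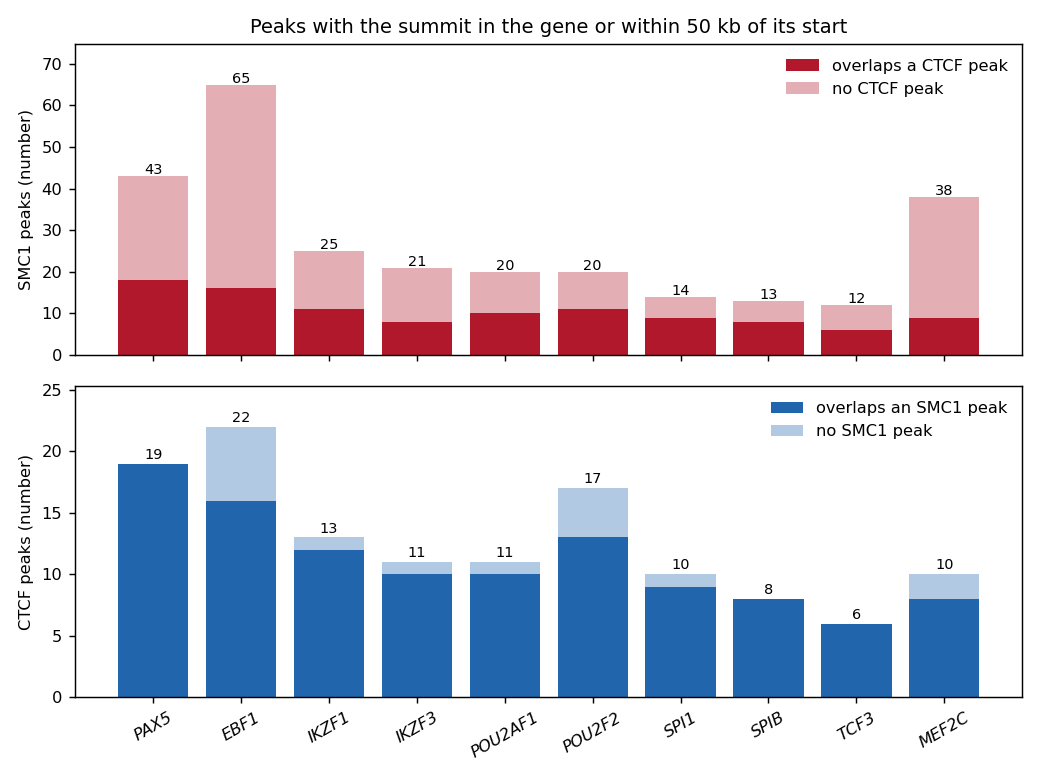
Number of SMC1 peaks (top) and CTCF peaks (bottom) with the summit in each gene or within 50 kb of its start, 1 pooled list per target. Dark bars are peaks that overlap a peak of the other target by at least 1 bp, and light bars are the rest. SMC1 peaks without CTCF make up most of the bar at EBF1 (49 of 65) and MEF2C (29 of 38). Of the CTCF peaks, 111 of 127 are dark, and the light ones include 6 of 22 at EBF1 and 4 of 17 at POU2F2.

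The share of SMC1 peaks with a CTCF peak under them differed between the genes, and EBF1 and MEF2C lowered the pooled value. Of the 271 SMC1 peaks, 106 overlapped a CTCF peak by at least 1 bp (39.1%, 95% Wilson interval 33.5 to 45%, for counting error only), compared with 47.1% of all SMC1 peaks. Without EBF1 and MEF2C, left out after their values were seen, it was 81 of 168 (48.2%), and the share exceeded that of all SMC1 peaks at 5 of the 10 genes. It was 64.3% at SPI1, 61.5% at SPIB, 55% at POU2F2, 50% at POU2AF1 and TCF3, 44% at IKZF1, 41.9% at PAX5 and 38.1% at IKZF3. It was lowest at EBF1, with 24.6%, and MEF2C, with 23.7%. In the other direction, 111 of 127 CTCF peaks overlapped an SMC1 peak (87.4%, interval 80.5 to 92.1%), compared with 75.9% of all CTCF peaks. All CTCF peaks did so at PAX5 (19), SPIB (8) and TCF3 (6). The 16 CTCF peaks without SMC1 included 6 at EBF1 and 4 at POU2F2.

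SMC1 peaks were stronger where they overlapped a called CTCF peak. The fold enrichment, which is the signal at the summit over the local background of the same library, had a median of 3.22 in the 106 SMC1 peaks with CTCF and 2.45 in the 165 without. The median was higher with CTCF at all 10 genes, by the most at POU2F2 (5.13 with and 2.67 without) and by the least at IKZF3 (2.31 and 2.25). The same held over all SMC1 peaks, where the medians were 4.65 with CTCF and 2.76 without. The median width was 859 bp with CTCF and 532 bp without. A wider peak meets the overlap rule more easily, and the lack of a called CTCF peak does not show that CTCF was absent. Summits at the 10 genes were on the whole less enriched than in the whole lists, with a median fold of 2.66 against 3.32 for SMC1 and 4.35 against 5.01 for CTCF.

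**Figure D2:**
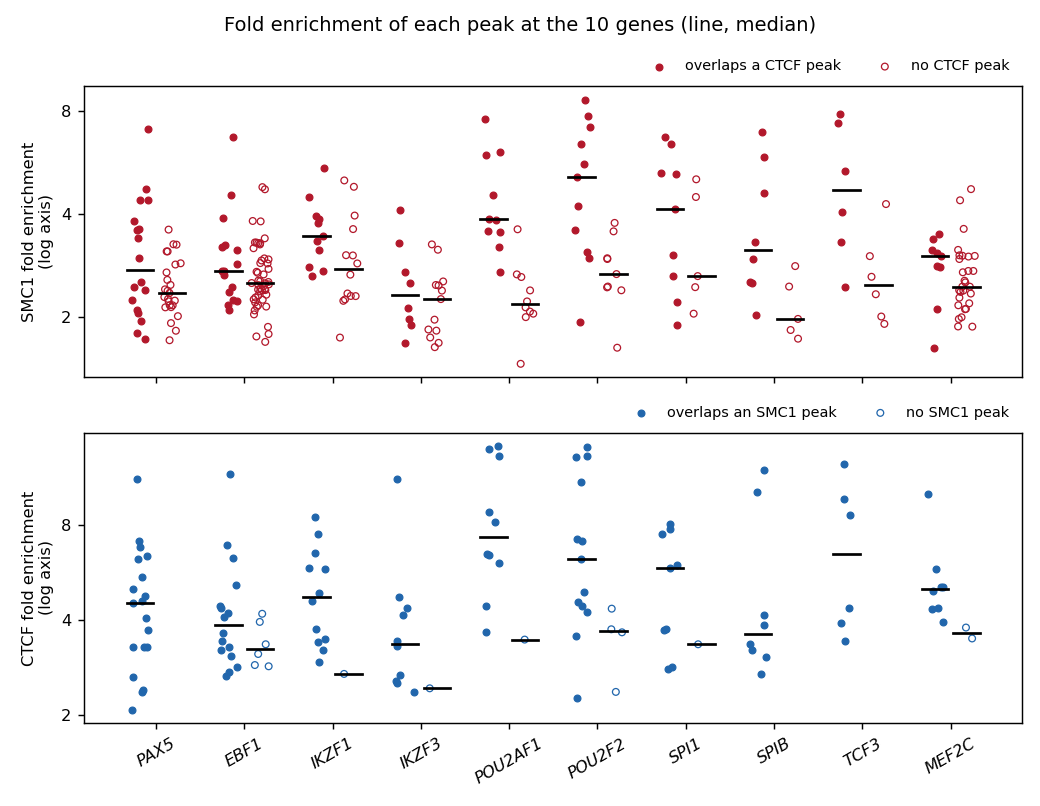
Fold enrichment of every SMC1 peak (top) and CTCF peak (bottom) at each gene on log axes, as filled points where the peak overlaps a peak of the other target and open points where it does not, with the median as a line. The SMC1 medians are higher with CTCF at all 10 genes, from 2.31 against 2.25 at IKZF3 to 5.13 against 2.67 at POU2F2, and the 2 classes overlap at every gene.

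In what follows, the highest peak is the one with the highest -log10 q-value. All 10 genes had an SMC1 summit within 1 kb of an annotated start, as did 62.6% of coding genes. A CTCF summit was within 1 kb of a start at 8 of the 10, and at 46.7% of coding genes. SPI1 and SPIB had none. The genes carry between 4 annotated starts (SPI1) and 52 (MEF2C), and a gene with many starts is met more often by any of these rules.

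Among the factors that open the B lineage programme, PAX5 (chr9:36833269-37034268, minus strand) had its highest SMC1 peak 40.1 kb into the gene, at the intronic summit shown above, with a fold of 3.26, a -log10 q-value of 68.8 and no CTCF peak. Its highest CTCF peak was intronic, 42.8 kb into the gene, with a fold of 6.81 and a -log10 q-value of 97.7. At the PAX5 start itself a CTCF summit lay 68 bp away (fold 6.41) and an SMC1 summit 866 bp away (fold 2.98). EBF1 (chr5:158695920-159099916, minus strand) was the longest of the 10 genes, with 404 kb. Its highest SMC1 peak was 7.1 kb upstream of the start (fold 4.53, -log10 q-value 105), and an intronic SMC1 peak without CTCF 88.5 kb into the gene had a fold of 4.8 and a -log10 q-value of 91.6. The summit nearest to the EBF1 start was that of an SMC1 peak of 2.37-fold enrichment at 307 bp, and the nearest CTCF summit was 4174 bp away. The highest EBF1 CTCF peak was 33.6 kb upstream, with a fold of 11.7 and a -log10 q-value of 124, and the highest at an annotated start was inside the gene, with a fold of 4.08. TCF3 (chr19:1609291-1652615, minus strand) had an SMC1 peak without CTCF 375 bp upstream of its start, with a fold of 4.28 and a -log10 q-value of 71.5. Its highest SMC1 peak was 19.2 kb upstream, with a fold of 7.83 and a -log10 q-value of 184. Its highest CTCF peak, with a fold of 12.6, was intronic, 28.2 kb into the gene, and that at a start had a fold of 3.92.

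At the Ikaros family genes, SMC1 and CTCF met at the main start. At IKZF3 (chr17:39757718-39864312, minus strand) the highest peak of each target sat at the gene start, 66 bp from it for SMC1 (fold 4.11, -log10 q-value 138) and 47 bp for CTCF (fold 11.3, -log10 q-value 191). At IKZF1 (chr7:50304068-50405101, plus strand) both summits lay 169 bp from the start of the MANE transcript, which is the reference transcript of a gene, with folds of 3.33 for SMC1 and 5.86 for CTCF. The highest SMC1 peak of IKZF1 was elsewhere, 22 kb upstream, with a fold of 5.46 and a -log10 q-value of 79.9. The highest SMC1 peak at a start was 64.6 kb into the gene (fold 4.81, no CTCF), and the highest CTCF peak was intronic, at 31.9 kb (fold 8.51, -log10 q-value 49.6). Its highest SMC1 peak without CTCF was in the gene, at 46.8 kb, with a fold of 5.02.

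POU2F2 and POU2AF1, the octamer factor and its coactivator, carried the most significant peaks of the set. The POU2F2 window (gene at chr19:42086110-42196585, minus strand) held SMC1 and CTCF summits 10 bp apart, at positions 42108789 and 42108779 in an intron 87.8 kb into the gene, with folds of 7.74 and 13.3 and -log10 q-values of 305 and 390. A further pair of summits lay 593 bp (SMC1) and 592 bp (CTCF) from the MANE start, which is 64.1 kb into the gene, with folds of 5.61 for SMC1 and 13.2 for CTCF. The POU2AF1 window (gene at chr11:111352255-111455630, minus strand) held its highest pair 32.3 kb into the gene, with folds of 6.1 and 13.3 and -log10 q-values of 254 and 335. The MANE start of POU2AF1 is 76.4 kb into the annotated gene and had an SMC1 summit at 344 bp (fold 3.58) and a CTCF summit at 343 bp (fold 3.65). At a start inside the gene, at 55.8 kb, POU2AF1 had summits of 5.95-fold (SMC1) and 14-fold (CTCF). The highest pair thus lay inside the reference transcript at POU2F2 and upstream of it at POU2AF1.

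The ETS factor genes SPI1 and SPIB were the shortest of the set, with 23.7 kb and 12.4 kb, and they had weak SMC1 peaks at their starts. At SPI1 (chr11:47354860-47378547, minus strand) the SMC1 summit 170 bp from the start had a fold of 2.04 and a -log10 q-value of 11.4. At SPIB (chr19:50418938-50431314, plus strand) the summit 263 bp from the start had a fold of 1.83 and a -log10 q-value of 5.07, the weakest of the 10 genes at the reference start. The nearest CTCF summit was 1584 bp from the SPI1 start, with a fold of 2.8, and 4282 bp from the SPIB start, with a fold of 12.1. Around both genes the highest SMC1 peaks lay in a neighbouring gene, 29.7 kb upstream in SLC39A13 for SPI1 (fold 6.71) and 42.5 kb downstream in MYBPC2 for SPIB (fold 6.94). The highest CTCF peak of SPI1 was also in SLC39A13, with a fold of 7.5 and a -log10 q-value of 152, and that of SPIB was the 12.1-fold peak already given, which lies in POLD1.

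MEF2C (chr5:88717117-88904257, minus strand) had the lowest maximum of SMC1 significance. Its 38 SMC1 peaks ranged from 1.61-fold to 4.73-fold with a median of 2.62, near the 2.66 of all 271, and its highest -log10 q-value was 36.4, the least among the highest values of the 10 genes. That peak lay 174 kb into the gene, beside the highest CTCF peak of the gene (fold 10.1, -log10 q-value 86.8). The 9 SMC1 peaks at a MEF2C start were spread over its many starts, with folds from 1.87 to 3.49.

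The loop lists gave the genes very different numbers of loops. In the list labelled SMC1, IKZF3 had 27 loops, POU2AF1 21, POU2F2 20, PAX5 5, TCF3 5, SPI1 4, EBF1 3, IKZF1 1, SPIB 1 and MEF2C 0. A loop was present at 9 of the 10 genes, and at 35.1% of coding genes. That of IKZF1 lay only at a start of a transcript not annotated as protein-coding. The loops labelled CTCF numbered 35 at IKZF3, 27 at POU2F2, 26 at POU2AF1, 26 at EBF1, 12 at PAX5, 12 at TCF3, 11 at IKZF1, 9 at MEF2C, 7 at SPIB and 6 at SPI1. All 10 genes had a loop there, as did 59.0% of coding genes. IKZF3 had more loops labelled SMC1 than 99.5% of coding genes and more labelled CTCF than 99.3%. SPI1 had more than 84.2% and 73.7%. Neighbouring bins of 5 kb are often called as separate loops, so these numbers do not count independent contacts.

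Pooled over the 10 genes, loops were somewhat shorter than those of the whole lists and had more read pairs. The median span was 95 kb against 130 kb for loops labelled SMC1 and 110 kb against 125 kb for those labelled CTCF. The median number of read pairs was 24 against 21 and 31 against 23. The ratio of observed to expected read pairs went the other way, with medians of 3.23 against 4 and 2.91 against 4.03. No loop in either list had a ratio below 2. By gene, the median span was above that of the whole list at EBF1 and IKZF1 in both lists, and at PAX5 and MEF2C labelled CTCF. The others were below it. Median read pairs were below those of the whole list at IKZF1 in both lists. They were also below at EBF1, SPIB and TCF3 labelled SMC1 and at PAX5 and MEF2C labelled CTCF, and above it elsewhere. Of the 87 loops labelled SMC1, 86 were matched within 15 kb at both anchors by a loop of the list labelled CTCF (98.9%, interval 93.8 to 99.8%), compared with 91.7% of that whole list. The unmatched loop was at POU2F2. Of the 171 loops labelled CTCF, 113 were matched in the list labelled SMC1 (66.1%, interval 58.7 to 72.8%), compared with 53.4% of the whole list. The matched share was 28 of 35 at IKZF3 and 7 of 26 at EBF1, and 0 of 9 at MEF2C. In the same pair of bins 55 loops were called in both lists, with medians of 28 read pairs labelled SMC1 and 62 labelled CTCF, and 48 of them had more read pairs in the list labelled CTCF. That list holds 2666327 read pairs in all and the other 788356, so the levels are not comparable between lists.

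**Figure D3:**
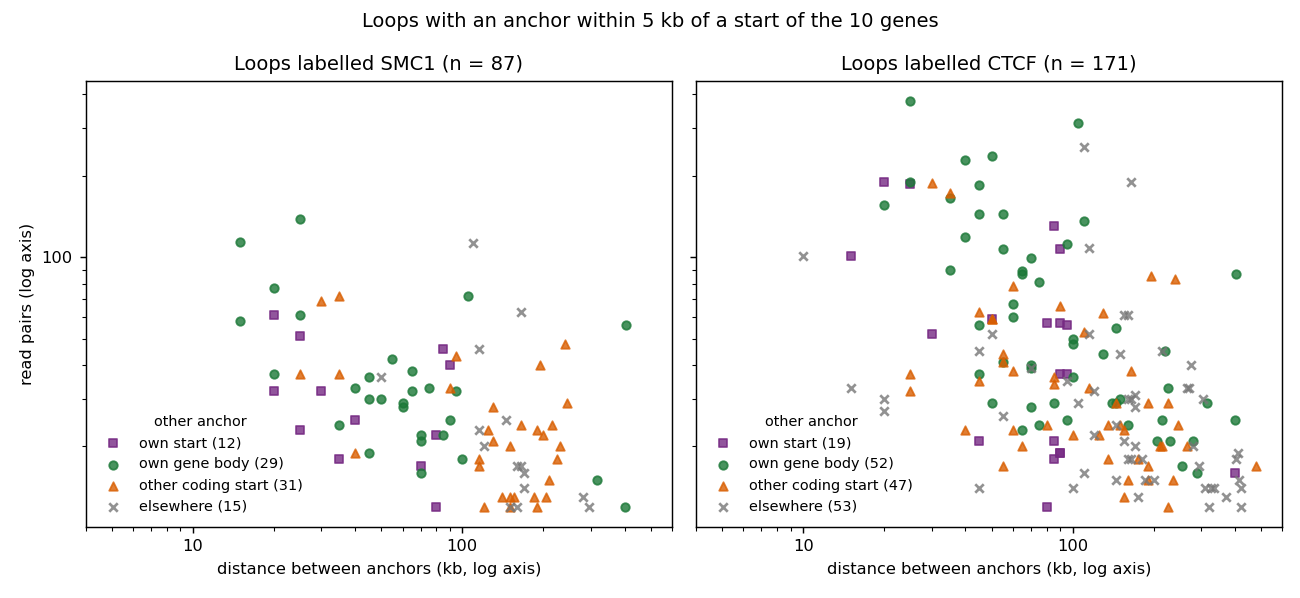
Distance between the anchors and number of read pairs of the 87 loops labelled SMC1 (left) and the 171 labelled CTCF (right) at the 10 genes, on log axes, with the colour and shape giving where the other anchor lies. The loops of 377 and 313 read pairs in the list labelled CTCF belong to POU2F2 and IKZF3, and the points of 56 and 87 read pairs near 400 kb are the EBF1 loops that span the gene.

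Pooled over the 10 genes, the far anchors lay in the gene itself more often than at a start of another coding gene. In the list labelled SMC1, 12 loops joined starts of the same gene, 29 joined a start to the body of the same gene, 31 reached a start of another coding gene and 15 lay elsewhere. The numbers for loops labelled CTCF were 19, 52, 47 and 53. The share that reached another coding start was 35.6% (interval 26.4 to 46.1%) and 27.5% (21.3 to 34.6%). These intervals treat loops in neighbouring bins as independent, which they are not, and so are too narrow. Over all pairs of a coding gene and a loop at it, the shares were 46.3% and 39.0%, and the share within the gene was not measured there. The genes differed. EBF1 had 22 loops labelled CTCF to its own body and POU2AF1 11 labelled SMC1, whereas SPI1 and SPIB had no far anchor in the gene. At POU2F2, 12 loops labelled SMC1 reached another coding start, against 6 to its body and 2 between its starts. The partner genes belonged to 6 of the 10, namely IKZF3, POU2AF1, POU2F2, SPI1, SPIB and TCF3, and 15 of the 32 partner genes were found in both lists. PAX5, EBF1, IKZF1 and MEF2C had no loop to the start of another coding gene in either list.

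EBF1 showed loops that ran the length of the gene. In the list labelled SMC1, its loop with the most read pairs joined the bin at 158695001, at the end of the gene, to the bin at 159100001, just upstream of its start, over 405 kb, with 56 read pairs where 3.05 were expected. The same bins held 87 read pairs against 8.93 expected in the list labelled CTCF. The anchor at the gene end held an SMC1 summit of 10.8-fold enrichment and a CTCF summit of 17.8-fold, with -log10 q-values of 436 and 405. These summits lie just beyond the gene end and so are not among the peaks counted above. The anchor near the start held a CTCF summit of 4.2-fold and no SMC1 summit, though SMC1 peaks of up to 3.21-fold with summits beyond its edges reached into it. The CTCF cores at these anchors, shown above, were both plus, so they did not face each other. In all, 22 of the 26 EBF1 loops labelled CTCF had the far anchor in the gene body. The one with the most read pairs, 107 against 41.2 expected, joined the bin of the intronic SMC1 summit shown above, which lies within 5 kb of an annotated start inside the gene, to a bin 55 kb farther into the gene. No CTCF peak lay on the bin of that summit. The longest EBF1 loop, of 420 kb with 12 read pairs, ended beyond the gene.

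At PAX5 the loops fell into a short and a long set. The short set joined bins near annotated starts 20 kb to 30 kb apart. Its loop with the most read pairs was of 25 kb in both lists, with 51 read pairs against 17.3 expected in the list labelled SMC1 and 187 against 79.8 in the list labelled CTCF. The long set spanned 265 kb to 370 kb towards the region upstream of the gene. Of its 13 loops over both lists, 12 ended in the body of ZCCHC7, a neighbouring gene, with up to 13 read pairs labelled SMC1 and 40 labelled CTCF. IKZF1 had the single loop labelled SMC1 of 165 kb with 17 read pairs against 2.28 expected, from a bin upstream of the gene to a start inside it. The upstream anchor held a CTCF summit of 11.1-fold and the plus core shown above. Of its 11 loops labelled CTCF, 9 ended upstream, in bins that start between 50200001 and 50260001 and touch no coding gene. Of the 11, the loop with the most read pairs, 56 against 26.3 expected, joined the start to the intronic SMC1 peak 46.8 kb into the gene. Its ratio of observed to expected was 2.13, below the median of 3.92 of the 11 loops. The longest was of 170 kb with 28 read pairs against 4.54 expected, and had the highest ratio, 6.16. Counting starts of protein-coding transcripts alone left IKZF1 with 0 loops labelled SMC1 and 4 labelled CTCF. MEF2C had no loop in the list labelled SMC1. Its 9 loops labelled CTCF had 14 to 37 read pairs, with 4 joining starts of the gene 85 kb to 95 kb apart and 5 reaching 180 kb to 420 kb upstream.

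**Figure D4:**
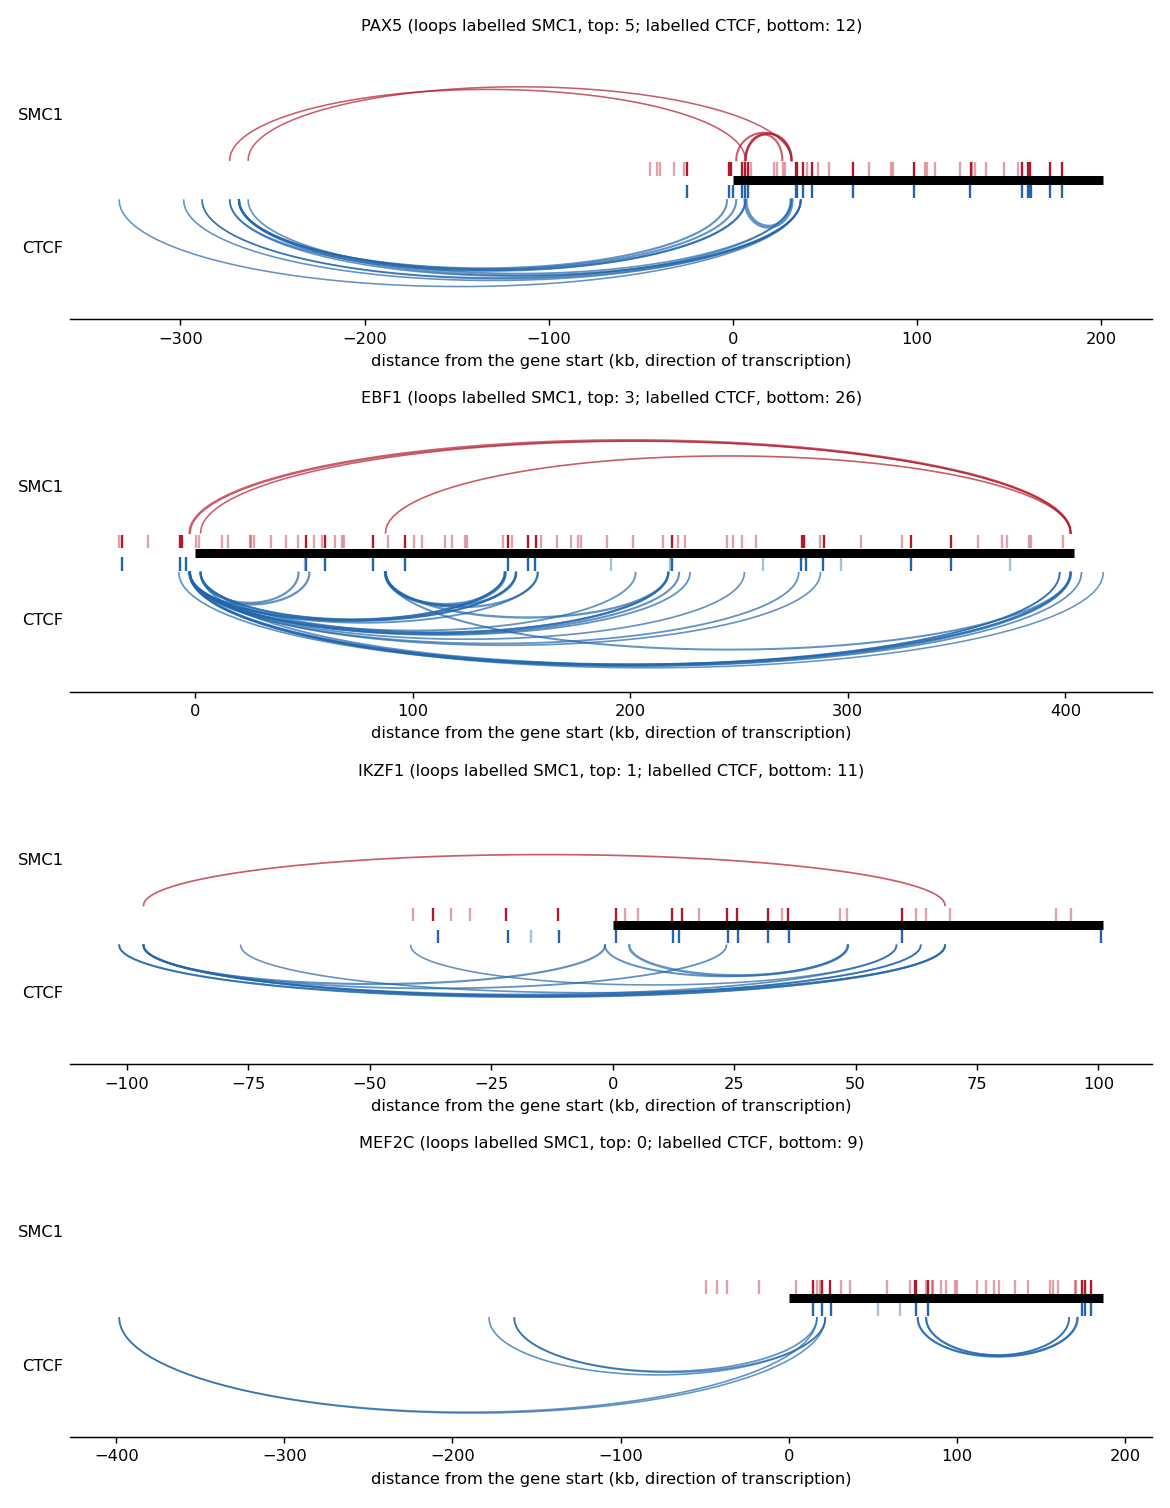
Peaks and loops at PAX5, EBF1, IKZF1 and MEF2C by distance from the gene start in kb, in the direction of transcription, with the gene as a black bar. Ticks are peak summits (SMC1 above in red, CTCF below in blue, pale where the other target has no overlapping peak), and arcs join the middles of loop anchors, with thicker lines for more read pairs. Arcs span all of EBF1 in both lists, PAX5 arcs reach over 250 kb upstream, and MEF2C has arcs in the list labelled CTCF alone.

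IKZF3 showed a fan of loops from its start. Of its 27 loops labelled SMC1, 26 had an anchor within 5 kb of the gene start, and so did all 35 labelled CTCF. The loop with the most read pairs joined the start to the bin just beyond the gene end over 110 kb, with 113 read pairs against 15.7 expected in the list labelled SMC1. In the list labelled CTCF the bin inside the gene end had the most, with 313 against 53.4 over 105 kb. Far anchors stood in the gene body at intervals (9 and 10 loops) and beyond it at starts of MIEN1, GRB7, ERBB2, STARD3 and PPP1R1B, up to 245 kb from the IKZF3 start. The loop towards PPP1R1B with the most read pairs had 48 labelled SMC1 and 83 labelled CTCF. Loops labelled CTCF also reached PGAP3, PNMT and TCAP. Upstream, loops reached GSDMA in both lists, and in the list labelled CTCF also GSDMB, ORMDL3, LRRC3C and PSMD3. In all, 6 partner genes were seen by loops labelled SMC1 and 13 by loops labelled CTCF.

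POU2F2 and POU2AF1 combined loops within the gene and to neighbours. The POU2F2 loop of 25 kb had more read pairs than any other loop of the 10 genes within each list. It ran between the bin of its strongest summit pair and the bin of its MANE start, with 139 read pairs against 52.8 expected labelled SMC1 and 377 against 113 labelled CTCF. Its start was also joined to the region of CIC and PAFAH1B3, at 165 kb, with 24 and 38 read pairs. GSK3A was reached in both lists (18 and 53 read pairs), ERF in the list labelled SMC1, and DEDD2, ZNF526 and CNFN in the list labelled CTCF, where the CNFN loop was the longest, with 265 kb and 20 read pairs. POU2AF1 had loops of 165 kb from a bin within 5 kb of an annotated start to a bin inside POU2AF2, a gene of the same coactivator family, with 63 read pairs against 6.8 expected labelled SMC1 and 189 against 17.1 labelled CTCF. That bin held SMC1 and CTCF summits at the same base, of 6.68-fold and 12.8-fold, and the plus core shown above. Loops to the start of POU2AF3, a further relative, had up to 13 read pairs labelled SMC1 and 24 labelled CTCF. Inside POU2AF1 the loop with the most read pairs was of 50 kb and labelled CTCF, with 237 against 68.7 expected, and neither of its anchors held a CTCF peak. The longest POU2AF1 loop was of 215 kb and labelled CTCF, with 45 read pairs. The numbers of these genes depend on which start is used: at the first annotated start alone POU2AF1 had 1 loop in each list, and POU2F2 had 3 labelled SMC1 and 4 labelled CTCF.

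**Figure D5:**
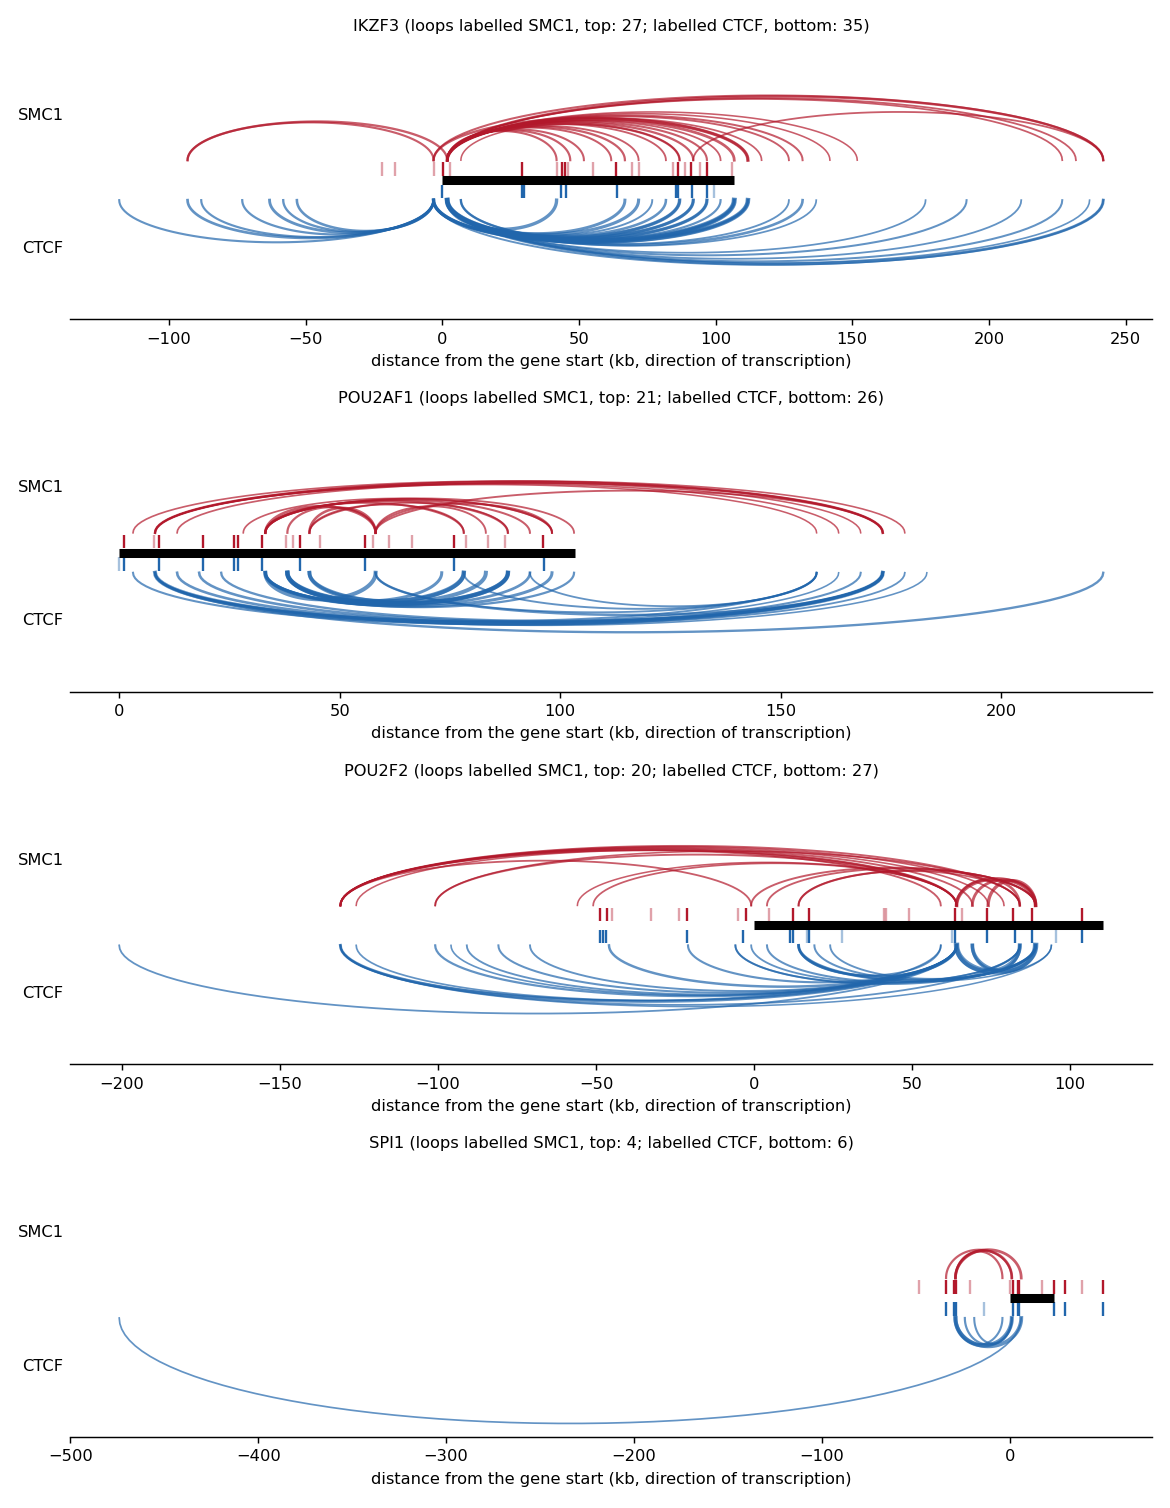
Peaks and loops at IKZF3, POU2AF1, POU2F2 and SPI1, drawn as in the plot of PAX5 and EBF1. All arcs of IKZF3 but 1 have an anchor within 5 kb of the gene start, those of POU2F2 and POU2AF1 start from several annotated starts inside the gene, and SPI1 has a compact set of arcs of 20 kb to 35 kb on its upstream side and a single arc of 480 kb in the list labelled CTCF.

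Loops were mostly short at SPI1 and SPIB, with median spans of 32.5 kb and 40 kb labelled SMC1 and 27.5 kb and 50 kb labelled CTCF. At TCF3 the medians were 120 kb and 47.5 kb. All 4 SPI1 loops labelled SMC1 reached the start of SLC39A13, a zinc transporter gene, 25 kb to 35 kb away, with 37 to 72 read pairs. Of the 6 loops labelled CTCF, 4 did so, with up to 188 read pairs, and a loop of 480 kb with 17 read pairs reached NUP160, a nucleoporin gene. The SPIB loop labelled SMC1 had 19 read pairs against 5.89 expected and joined its start to a bin near the starts of NR1H2 and POLD1, at 40 kb. Of its 7 loops labelled CTCF, 6 went to the same side, to NAPSA and NR1H2, with 17 to 63 read pairs. TCF3 had 5 loops labelled SMC1 with 12 to 36 read pairs, of which 3 ended in ONECUT3, 120 kb to 150 kb upstream. The TCF3 loop labelled CTCF with the highest count had 101 read pairs against 41.4 expected and spanned 10 kb. Loops to the starts of UQCR11 (35 read pairs) and MBD3 (23 read pairs) were in the list labelled CTCF.

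Peaks at the anchors differed between the lists in the same way as genome-wide. The study called loops from the peaks of the same target and kept those with an anchor enriched in it. If the lists are exchanged, a CTCF peak at an anchor of every loop labelled SMC1 thus follows from the calling. The same then holds for an SMC1 peak at an anchor of the loops labelled CTCF. All 87 loops labelled SMC1 at the 10 genes had a CTCF peak at an anchor, and 54 had it at both (62.1%, interval 51.6 to 71.5%), compared with 57.9% of the whole list. Of the 171 loops labelled CTCF, 161 had a CTCF peak at an anchor and 72 at both (42.1%, interval 35 to 49.6%), compared with 47.7%. An SMC1 peak was at both anchors of 80.5% and 82.5% of the loops, compared with 67.3% and 70.9% of the whole lists.

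The DNA under the peaks separated the peaks with CTCF from those without. The 12-letter core of the CTCF motif was found on either strand in 18 of 106 SMC1 peaks with CTCF (17%, interval 11 to 25.3%) and in 3 of 165 without (1.82%, interval 0.62 to 5.21%). The shares over all SMC1 peaks were 24.9% and 2.01%, and in windows of the same length moved by 5 kb they were 3.67% and 1.74%. The core was thus no more frequent at the 10 genes than elsewhere, and most CTCF peaks held no match to it. It was seen in 4 of 10 CTCF peaks of SPI1, 4 of 19 of PAX5 and 0 of 13 of IKZF1. A core on a single strand at each anchor was present in 3 of the 87 loops labelled SMC1 and 8 of the 171 labelled CTCF. The cores faced each other in 0 and 3 of these, compared with 68.3% of 2026 and 68.9% of 4244 loops over the whole lists. With so few loops at the 10 genes, the intervals are 0 to 56.1% for the first share and 13.7 to 69.4% for the second. Several of the loops labelled CTCF share an anchor, so they are not independent, which the intervals leave out of account.

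The letters read by the B cell factors themselves were found in SMC1 peaks of these genes at shares whose intervals held those of all SMC1 peaks of the same class. Within 301 bp around the summits of the 165 SMC1 peaks without CTCF, the EBF1 letters were found in 18 (10.9%, interval 7.01 to 16.6%), the octamer in 7 (4.24%, 2.07 to 8.5%), the E-box in 22 (13.3%, 8.97 to 19.4%) and the PU.1 letters in 21 (12.7%, 8.48 to 18.7%). Over all SMC1 peaks without CTCF the shares were 9.37%, 3.14%, 15.3% and 11.9%, all inside those intervals. In windows moved by 5 kb the shares were 6.1%, 2.35%, 11.7% and 8.33% over all such peaks, and 9.09%, 1.82%, 10.3% and 6.06% at the 10 genes. In the 106 SMC1 peaks with CTCF the EBF1 letters were found in 17% (interval 11 to 25.3%, all such peaks 12.5%), the octamer in 1.89% (0.519 to 6.62%, all 2.01%), the E-box in 21.7% (14.9 to 30.5%, all 15.6%) and the PU.1 letters in 11.3% (6.6 to 18.8%, all 10.8%). Among the peaks without CTCF, at least 1 of the 4 was found in 12 of 25 at PAX5, 11 of 49 at EBF1 and 7 of 29 at MEF2C. Matches of different motifs overlapped in 1 case. A match is a string of letters and not a measured site.

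For comparison, 20 other regulators of B cell development and activation were examined: BACH2, BCL6, IRF4, IRF8, PRDM1, XBP1, FOXO1, BCL11A, TCF4, TCF12, MYB, LEF1, RUNX1, RUNX3, ETS1, MEF2B, POU2F1, IKZF2, ID2 and ID3. An SMC1 summit lay within 1 kb of a start at 17 of them and a CTCF summit at 13, a loop labelled SMC1 was present at 17 and a loop labelled CTCF at all 20. The median number of loops was 2.5 labelled SMC1 and 10 labelled CTCF, compared with 4.5 and 12 at the 10 genes. Among relatives of the 10 genes, IKZF2, which encodes Helios, had 20 loops labelled SMC1 and 37 labelled CTCF, while POU2F1, which encodes OCT1, had 0 and 5. TCF12 and TCF4, which encode the other E proteins, had 17 and 42 loops and 2 and 10 loops. RUNX3 had 26 and 28. The median density of SMC1 peaks was 9.3 per 100 kb over these 20 genes and 13.7 over the 10. A high density was not particular to the 10, however. RUNX3 (21.6), IRF4 (21), ETS1 (18.5) and ID3 (18) each exceeded the 17.1 of PAX5, the highest of the 10. The rest of the 20 lay below PAX5, down to 3.63 at RUNX1.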

How the data were processed

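SMC1 FA-EGS HiChIP and CTCF FA-HiChIP were performed on HG00731 LCL, in 2 biological replicates per target. Reads were mapped by the authors with BWA-MEM (hg38), duplicates were removed, and the authors called peaks with MACS3 (version 3.0.1) without an input library, and called loops with MAPS on pooled reads in bins of 5 kb. In the deposited peak lists the fold enrichment is a ratio of the summit signal to the local background. The deposited -log10 q-value of each peak is as the caller wrote it, and the lowest was 2.01 for SMC1 and 2.0 for CTCF. The deposited loop lists give the observed count of read pairs and the expected count of each pair of bins. Their loops have at least 12 read pairs, a ratio of observed to expected of at least 2, and spans of 10 to 1000 kb. Pooling leaves no spread between replicates, and the total depth of each replicate is not analysed here, nor are the contact maps and signal tracks.

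Genes and transcript starts were taken from GENCODE release 44. Peaks were assigned by a summit in the gene body or within 50 kb of the gene start, and loops by an anchor within 5 kb of a transcript start. Peaks that shared at least 1 bp were counted as overlapping, and loops were matched within 15 kb at both anchors. Shares carry 95% Wilson intervals, which cover counting error only. For shares of loops they also treat calls in neighbouring bins as independent, which makes them too narrow. Reads without molecular identifiers are not independent molecules. For each gene and target the rule named the most significant peak by -log10 q-value, in the window and at a start, the loops with the most read pairs and the longest, and the genes at far anchors. The genes were picked by name, but by a proposal made with earlier results of these data known, as were the lists. The windows printed at CTCF cores are centred on the match rather than on the summit as first planned, and other peaks and loops were singled out after their values were seen. Python 3.11.15, numpy 2.4.6, pandas 2.3.3, scipy 1.17.1, pysam 0.24.0 and matplotlib 3.10.9 were used, and the counting steps were tested on simulated data. A marker gene and a partner gene are not reported here.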

Additional observations from a re-analysis of the deposited data

How the results depend on the processing

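Of 48 alternatives, 27 left the result within 1.5 times a count or inside the counting interval of a share, and 21 moved it. Where the -log10 q-value had to reach 10, 161 SMC1 peaks and 82 CTCF peaks were left. With overlap defined by summits within 200 bp, the shares of peaks with the other target were 31% for SMC1 and 66.1% for CTCF. Without EBF1 and MEF2C, a choice made after seeing the data, the SMC1 share was 48.2%. An anchor within 10 kb of a start gave 144 loops labelled SMC1, the gene start alone gave 43 labelled SMC1 and 89 labelled CTCF, a start inside the anchor gave 95 labelled CTCF, and at least the median read pairs of the list left 55 labelled SMC1. Matched shares were 89.7% and 56.1% with 5 kb and 63.2% and 32.2% with no tolerance, for loops labelled SMC1 and CTCF. With a start inside the far anchor, 21.8% and 19.3% reached another coding gene. With the loop lists exchanged, which was chosen after seeing the data, the lists had 171 loops (SMC1) and 87 (CTCF), matched shares of 66.1% and 98.9%, and 35.6% of the second reached another coding start. The number of genes with an SMC1 peak at a start was 9 or 10 and with a CTCF peak 7 to 9 under every alternative run. Each alternative changed a rule, a threshold, or the genes or loops used, and why the values moved was not tested. No paired analysis was possible because each target has a single list pooled over replicates and no result comes from a test. For the same reason no replicate could be left out.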
